A study of Caenorhabditis elegans with 2 samples.

Results

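The genes described here encode general machinery of translation, of the proton-pumping vacuolar ATPase (V-ATPase) and of the cytoskeleton in the nematode Caenorhabditis elegans. They were taken by name from the WBcel235 gene models: every protein-coding gene whose name starts with eef, eif, iff, ife, ifg, vha, tba or tbb, and act-1, act-2 and act-3. This gave 74 of 19973 protein-coding genes in 9 families, with 25 eif, 20 vha, 8 tba, 6 eef, 5 ife, 4 tbb, 3 act, 2 iff genes and 1 ifg gene. The question was where these genes stand in a map of regions recovered with the GATA factor ELT-3.

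The data are chromatin immunoprecipitation sequencing (ChIP-seq) of whole L3 larvae of strain OP75, in 2 biological replicates that form 1 group, of mixed sex. All animals carried the unc-119(ed3) mutation on chromosome III and the integrated transgene wgIs75, from which ELT-3 is made as a fusion with enhanced green fluorescent protein (eGFP). The antibody field of the labels reads elt-3 while the experiment is said to be against eGFP-elt-3, so which of the fused proteins the antibody bound cannot be told from the labels. They also leave out the transgene's copy number and the tissues in which it is active. There is no second condition, and a control experiment that the labels name was not used here. Because whole animals were used, a region cannot be assigned to a tissue, and a signal from few cells cannot be told apart from a weak signal in many.

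ELT-3 belongs to the GATA family, whose zinc fingers bind DNA around the core letters GATA, and it is known as a regulator of genes of the worm's epidermis. Translation factors bring the ribosome to a messenger RNA, start it, and carry it through elongation, and nearly every growing cell needs them. The V-ATPase has a cytoplasmic V1 part that splits ATP and a membrane V0 part that passes protons, and it acidifies organelles and, in some epithelia, the space outside the cell. Tubulins and actins build the microtubules and filaments of all cells, although some worm tubulins are known mainly from ciliated or touch-sensing neurons.

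The deposited lists give regions of 356 bp with a signal and a summit. The relaxed lists hold 21761 regions for the pooled replicates, 30000 for replicate 1 and 30000 for replicate 2, and by design they contain background beside peaks. The pooled signals ran from 147.9 down to 15.06, and the region of rank 1000 had 32.94. Corresponding spans were 95.18 to 6.452 in replicate 1 and 53.91 to 8.473 in replicate 2, so ranks rather than signals were set side by side across lists. An irreproducible discovery rate (IDR) list holds 280 regions with signals down to 46.79. A gene was given a region when a summit fell between 1000 bp before and 200 bp past its 5′ end. Positions below are relative to that end, with negative values upstream. Several genes can share a summit under this rule. The labels and headers do not state read depth, and with 2 replicates no standard deviation or test is attached to a gene.

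Of the 74 genes, 29 (39.2%) had a pooled region of any rank, against 26.9% of all protein-coding genes. Replicate 1 gave 39 genes (52.7%, against 36.6%) and replicate 2 gave 31 (41.9%, against 33.6%). Near the top of the lists the counts were small and the distance from the background was wider in proportion: 5 genes (6.76%) had a region among the 1000 strongest pooled regions, against 1.98% of all genes. In replicate 1 this was 6 genes (8.11%, against 2.24%) and in replicate 2 it was 4 genes (5.41%, against 1.48%). IDR peaks lay at 2 genes (2.7%, against 0.666%), iff-2 and vha-8. The 1000 strongest regions of both replicates included 3 genes (4.05%, against 0.581%), iff-2, vha-8 and eef-1A.1. These shares are descriptions of a list chosen by name, and no test of the list was made.

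The DNA under the strongest summits is shown for the letters near them. Each line below is the pooled summit with 50 bases on either side, 5′ to 3′ on the gene's strand, from the RefSeq genome sequence of ce11 (WBcel235), for the 5 genes in the top 1000 and then for tbb-1, act-2 and act-1. None of these windows overlaps an annotated exon. Capitals mark matches on either strand to WGATAR, the GATA-factor motif, in which W stands for A or T and R for either purine. They also mark the repeat GAGAGA, the motif ACGCAG and the palindrome CACGTG, which earlier work on these lists had shown in strong regions.
iff-2, chromosome II:8561405-8561505, minus strand: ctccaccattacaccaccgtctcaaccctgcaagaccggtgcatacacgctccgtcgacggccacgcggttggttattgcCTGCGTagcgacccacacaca
vha-8, chromosome IV:6790605-6790705, plus strand: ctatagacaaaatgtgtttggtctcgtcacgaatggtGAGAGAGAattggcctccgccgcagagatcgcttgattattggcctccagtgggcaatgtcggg
eef-1G, chromosome V:10965617-10965717, plus strand: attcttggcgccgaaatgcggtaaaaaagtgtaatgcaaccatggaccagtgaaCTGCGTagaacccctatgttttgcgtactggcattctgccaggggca
eef-1A.1, chromosome III:6972046-6972146, minus strand: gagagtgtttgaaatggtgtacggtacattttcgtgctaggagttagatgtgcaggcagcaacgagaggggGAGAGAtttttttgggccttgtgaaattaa
vha-12, chromosome X:4190518-4190618, plus strand: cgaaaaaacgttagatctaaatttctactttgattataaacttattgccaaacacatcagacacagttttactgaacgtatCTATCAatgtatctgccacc
tbb-1, chromosome III:10742661-10742761, minus strand: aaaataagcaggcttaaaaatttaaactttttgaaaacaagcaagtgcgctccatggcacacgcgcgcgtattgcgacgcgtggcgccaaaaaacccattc
act-2, chromosome V:11078462-11078562, minus strand: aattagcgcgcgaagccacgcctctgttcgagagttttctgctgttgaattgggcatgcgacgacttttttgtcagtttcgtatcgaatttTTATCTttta
act-1, chromosome V:11080808-11080908, plus strand: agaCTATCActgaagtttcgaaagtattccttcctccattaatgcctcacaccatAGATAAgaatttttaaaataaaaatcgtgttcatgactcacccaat

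Of the 5 windows with the highest signals, the GATA motif stood only in that of vha-12, as CTATCA on the plus strand. The windows of iff-2 and eef-1G each held CTGCGT, the reverse complement of ACGCAG, and those of vha-8 and eef-1A.1 held GAGAGA. The motifs other than the GATA motif were already known from strong regions of these lists. Their presence in strong windows here is therefore not an independent finding. In the remaining windows, act-2 and act-1, with pooled regions far down the list, had 1 and 2 WGATAR matches, and tbb-1 had none. These few windows show no trend with rank. Among all pooled regions the GATA motif was in 23.9%, and among the 1000 strongest it was in 35.9%.

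Among elongation factors, 4 of 6 eef genes had a pooled region (66.7%, against 26.9% of all genes). Of these, 2 were in the top 1000 (33.3% of the family, against 1.98%). The gene eef-1G (WBGene00008920, chromosome V:10965719-10967922) encodes the gamma subunit of elongation factor 1. Its region at V:10965489-10965844 had pooled rank 294 and a signal of 46.26 at −52 bp. The same summit position had rank 192 and signal 33.1 in replicate 1, while in replicate 2 the strongest region had rank 7249 and signal 13.67 at 0 bp. The replicates therefore stand far apart at this gene, and the summit also lay in the window of ctf-4, its neighbour.

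The eEF1A gene eef-1A.1 (WBGene00001168, chromosome III:6970026-6971712) encodes the protein that delivers aminoacyl-tRNA to the ribosome. It had a region at III:6971918-6972273 with pooled rank 373 and signal 43.03 at −384 bp. Replicate 1 placed it at rank 741 with signal 21.53 at −381 bp, and replicate 2 at rank 457 with signal 22.75 at −422 bp. All 3 lists thus put it in their top 1000 with replicate summits 3 bp and 38 bp from the pooled one. The nearest 5′ end to the pooled summit, however, was that of rfc-4, 157 bp away, and the microRNA gene mir-5549 lay within 200 bp.

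The second eEF1A gene, eef-1A.2, had pooled rank 2243 with signal 27.41 at −412 bp. It had rank 1051 with signal 19.36 at −413 bp in replicate 1 and no region in replicate 2. For eef-1B.1, a subunit of the exchange factor that recharges eEF1A, the pooled rank was 17310 at −95 bp, the rank in replicate 2 was 3810 at −94 bp, and replicate 1 gave none. The translocation factor gene eef-2 had a region in replicate 1 alone, of rank 3032 and signal 14.36 at −23 bp, and eef-1B.2 had rank 24336 there alone. Reads from the near-identical eEF1A genes may map to more than 1 place, and the labels do not say how such reads were treated.

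**Figure D1:**
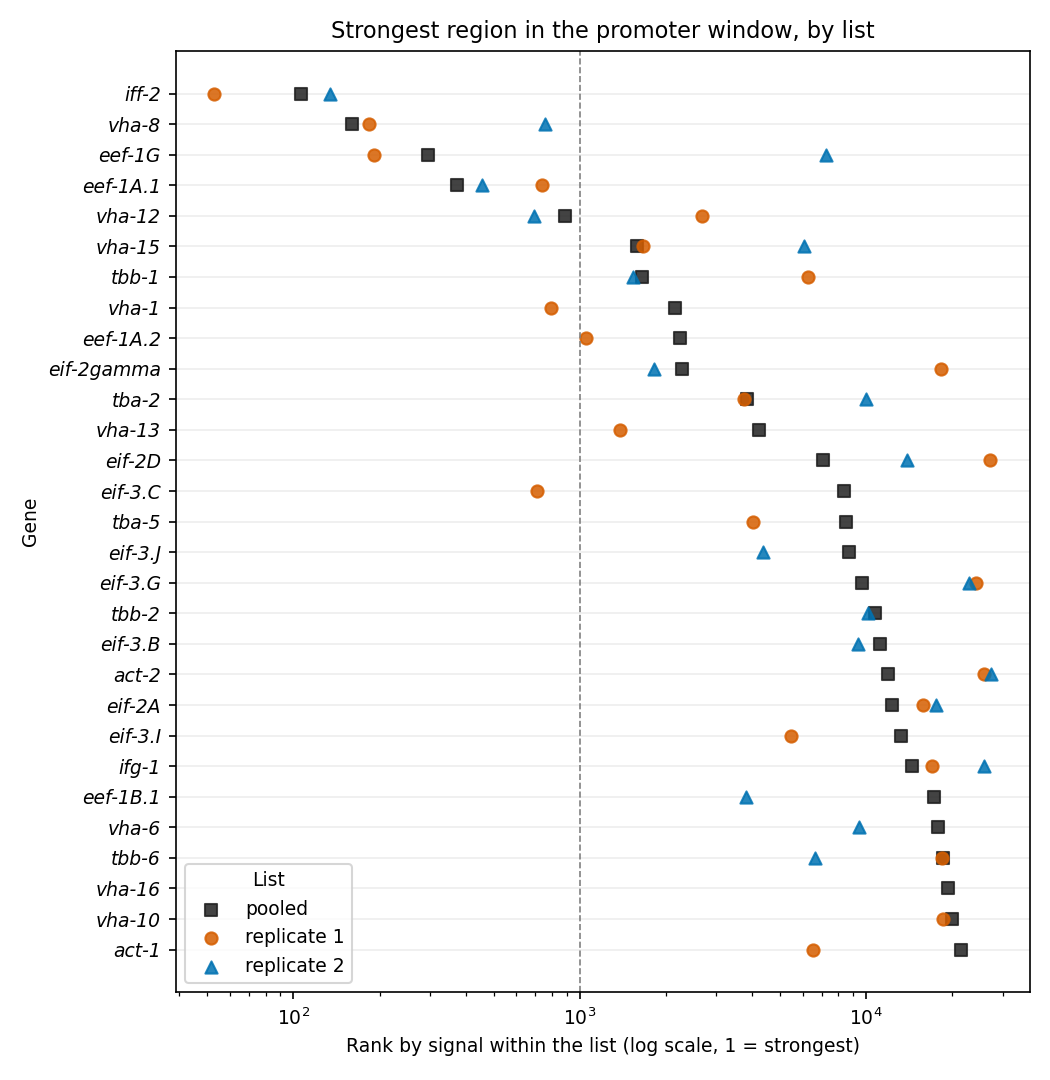
Rank of the strongest region in the promoter window for the 29 genes with a pooled region, on a log scale with 1 as the strongest. Squares are the pooled list, circles replicate 1 and triangles replicate 2, a missing symbol means no region in that list, and the dashed line marks rank 1000. A replicate's point is its own strongest summit in the window and need not overlap the pooled region. The 3 symbols lie left of the line for iff-2, vha-8 and eef-1A.1 alone.

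The strongest region of all 74 genes lay at iff-2 (WBGene00002065, chromosome II:8559375-8561367), which encodes eIF5A, a small factor that carries the modified residue hypusine and helps the ribosome past stretches such as proline runs. It spans II:8561277-8561632, is an IDR peak, and had pooled rank 106 with signal 63.94 at −88 bp. In replicate 1 the summit lay at −79 bp with rank 53 and signal 49, and in replicate 2 it lay at −231 bp with rank 134 and signal 28.13. Both replicates thus rank it high, but the summit of replicate 1 is 9 bp from the pooled one and that of replicate 2 is 143 bp from it. A weaker pooled region, of rank 21276 and signal 15.18, had its summit at −294 bp. F54C9.14 has the same summit in its window, although the 5′ end of iff-2 is the nearest.

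The replicate 2 summit sits on another stretch of DNA than the pooled one, and for this reason its window is shown too, chosen after the values were seen, with WGATAR matches in capitals.
iff-2, replicate 2 summit, chromosome II:8561548-8561648, minus strand: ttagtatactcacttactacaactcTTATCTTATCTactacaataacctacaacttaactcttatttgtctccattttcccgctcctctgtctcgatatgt
Here 2 WGATAR matches, read on the opposite strand as TTATCT, stand next to each other, whereas the pooled window has none. The pooled summit is 160 bp from the nearest WGATAR. The paralogue iff-1, the eIF5A gene known from the germline, had a region in replicate 1 only, of rank 21721 at −24 bp.

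No eif gene reached the 1000 strongest pooled regions: 8 of 25 had a region of any rank, as did 10 in replicate 1 and 9 in replicate 2. These counts lie near the shares over all genes, 1.98% for the pooled top 1000 and 26.9%, 36.6% and 33.6% for any rank. The factors place the initiator tRNA (eIF2), recycle its nucleotide (eIF2B) and hold the small subunit together with other factors (eIF3). The highest in the pooled list was eif-2gamma (WBGene00021466, chromosome I:2313271-2315992), the GTP-binding subunit of eIF2, with rank 2273 and signal 27.33 at −49 bp (I:2313044-2313399). It had rank 18252 and signal 8.2 at −139 bp in replicate 1, but rank 1817 and signal 18.16 at −83 bp in replicate 2. The replicates differ widely in rank here. Of the other eIF2 subunits, eif-2alpha had a region in replicate 2 only, of rank 13193, and eif-2beta had none.

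When the eif genes were grouped by complex, a grouping made from textbook knowledge after the values were seen, 5 of 11 eIF3 genes had a pooled region and the highest was eif-3.C at rank 8391. The others were eif-3.J (8697), eif-3.G (9672), eif-3.B (11163) and eif-3.I (13262). The core subunit gene eif-3.C had rank 709 and signal 21.78 at −299 bp in replicate 1, the only eif gene in the top 1000 of either replicate, and no region in replicate 2. For eIF2B, 0 of 5 genes had a pooled region, although 3 had one in replicate 1 and 1 in replicate 2, none above rank 5558. Over all genes the shares are 26.9% in the pooled list, 36.6% in replicate 1 and 33.6% in replicate 2. The eIF3 and eIF2B counts, over 11 and 5 genes, were not tested against them. The 2 other pooled regions at eif genes lay at eif-2D (rank 7053, in a coding exon of its neighbour ndub-5) and eif-2A (rank 12320).

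The cap-binding side of initiation had regions in the weak part of the lists. None of the 5 ife genes, which encode eIF4E proteins that hold the cap of the messenger RNA, had a region in the pooled list or in replicate 2. Over all genes the shares in these lists are 26.9% and 33.6%, and the counts over 5 genes were not tested against them. In replicate 1, ife-3 had rank 14181 and ife-2 had rank 18825. Their partner ifg-1 (WBGene00002066, chromosome II:8217222-8222396) encodes the scaffold eIF4G and had a pooled region at II:8217173-8217528, of rank 14467 and signal 17.4 at 129 bp, inside its own coding exon. The replicate summits were elsewhere, at −710 bp with rank 16914 in replicate 1 and at −23 bp with rank 25858 in replicate 2. All 3 values for ifg-1 are from the weak part of the lists, where background regions were kept.

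V-ATPase genes were unevenly placed. Of the 20 vha genes, 8 had a pooled region (40%, against 26.9% of all genes), 11 a region in replicate 1 (55%, against 36.6%) and 8 in replicate 2 (40%, against 33.6%). The replicate 2 share lies near that of all genes. In the top 1000 of each of these lists there were 2 vha genes (10%, against 1.98%, 2.24% and 1.48% of all genes). The pair in the pooled list was vha-8 and vha-12, both encoding parts of the V1 domain. Subunit E, a peripheral stalk protein, is the product of vha-8 (WBGene00006917, chromosome IV:6791074-6792455). Its region at IV:6790477-6790832 is an IDR peak with pooled rank 160 and signal 54.38 at −419 bp, rank 184 and signal 33.55 at −418 bp in replicate 1, and rank 755 and signal 20.97 at −402 bp in replicate 2. The summits agree within 17 bp of the pooled one, and the gene is in the top 1000 of every list. Its nearest 5′ end, 167 bp away, is that of C17H12.2, so the region lies closer to that gene than to vha-8.

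Subunit B, a nucleotide-binding part of V1, is encoded by vha-12 (WBGene00006921, chromosome X:4191094-4193144). The region X:4190390-4190745 had pooled rank 886 and signal 33.86 at −526 bp, and in replicate 2 rank 691 and signal 21.3 at −523 bp. In replicate 1 the strongest region had rank 2676 and signal 14.87 with its summit at −339 bp, close to a second pooled region of rank 21103 and signal 15.23 at −326 bp. The replicates thus favour different summits in this promoter. No other gene's window held the pooled summit, which was true of vha-12 alone among the 5 genes in the top 1000.

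Further V1 genes followed at lower ranks. Subunit H is encoded by vha-15, which had pooled rank 1589 and signal 29.5 at −230 bp. Its strongest region in replicate 1 had rank 1667 and signal 16.85 at −881 bp, while the regions that overlap the pooled one had rank 4053 in replicate 1 and rank 6050 in replicate 2. For vha-13, the catalytic subunit A, the pooled rank was 4224 at −560 bp, in the 3′ untranslated region of cept-2, with rank 1384 in replicate 1 and no region in replicate 2. Taken as a group made after the values were seen, 5 of 9 V1 genes and 3 of 9 V0 genes had a pooled region, and among the 5000 strongest pooled regions the counts were 4 and 1. Over all genes the shares are 26.9% for any rank and 7.39% for the 5000 strongest, and the V0 counts lie near these. The difference between the parts was not tested.

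In the V0 part, the highest gene was vha-1, a proteolipid of the proton-carrying ring, with pooled rank 2157 and signal 27.6 at −469 bp. It had rank 793 and signal 21.02 at −322 bp in replicate 1 and no region in replicate 2, and the pooled summit is nearest to sqv-3, 431 bp away. The membrane subunit a gene vha-6, known from the intestine, had pooled rank 17875 at −649 bp and rank 9441 in replicate 2. A region at vha-16 had pooled rank 19314 and was the only one of the 29 that overlapped no region of either replicate. The genes vha-9, vha-17 and vha-20 had regions in replicate 1 of ranks 4128, 4512 and 3225, and none of the 3 had a pooled region.

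**Figure D2:**
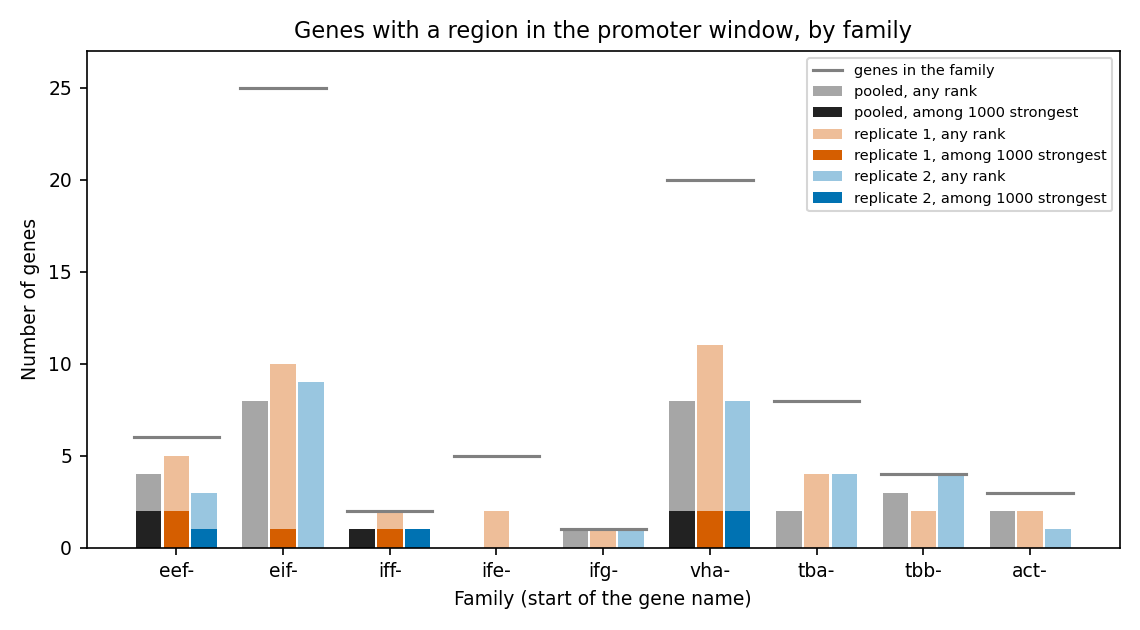
Number of genes with a region in the promoter window by family, for the pooled list, replicate 1 and replicate 2, with the part among the 1000 strongest in the darker shade and the family size as a horizontal line. The eef, iff and vha families hold all 5 genes in the pooled top 1000, where the share of all protein-coding genes is 1.98%. The 25 eif genes, 8 tba genes and 5 ife genes hold none, which for families of these sizes lies near that share. Differences between families were not tested.

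Tubulin genes had no region in the top 1000 of any list. Over all genes the shares there are 1.98% in the pooled list, 2.24% in replicate 1 and 1.48% in replicate 2. For 8 tba and 4 tbb genes, counts of 0 lie near these shares. For beta-tubulins, 3 of 4 tbb genes had a pooled region, against 26.9% of all genes. The highest was at tbb-1 (WBGene00006536, chromosome III:10740868-10742432), a broadly used beta-tubulin. Its region III:10742533-10742888 had pooled rank 1654 and signal 29.21 at −279 bp, rank 6257 and signal 11.81 at −260 bp in replicate 1, and rank 1531 and signal 18.66 at −279 bp in replicate 2. It is found in all 3 lists at nearly the same position, higher in replicate 2 than in replicate 1, and closer to rib-2 (99 bp) than to tbb-1. The other broadly used gene, tbb-2, had pooled rank 10715 at −890 bp, while tbb-4, known from ciliated neurons, had a region only in replicate 2, of rank 13689.

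For alpha-tubulins, 2 of 8 tba genes had a pooled region, near the 26.9% of all genes. The broadly used tba-2 (WBGene00006529, chromosome I:12964674-12966795) had rank 3825 and signal 24.4 at −152 bp (I:12966769-12967124), rank 3734 and signal 13.55 at −152 bp in replicate 1, and rank 9982 and signal 12.6 at −163 bp in replicate 2. Its summit differed by 11 bp at most, at middling ranks. The gene tba-5, known from ciliated neurons, had pooled rank 8520 at −357 bp and rank 4027 in replicate 1. No region in any list lay at tba-1, tba-6 or tba-8.

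The actin genes act-1, act-2 and act-3 lie near each other on chromosome V and encode almost the same protein, and reads that map to several of them are subject to the limit given for eEF1A. At act-2 (WBGene00000064, V:11076777-11078154) the pooled rank was 11893 with signal 18.44 at −358 bp (V:11078334-11078689). It was rank 25839 with signal 6.997 at −355 bp in replicate 1 and rank 27248 with signal 8.866 at −358 bp in replicate 2. This is a weak region by rank but a repeatable one by position, since its summits lie within 3 bp of each other. At act-1 (WBGene00000063, V:11081052-11082415) the pooled rank was 21391 with signal 15.16 at −194 bp (V:11080680-11081035), close to the end of the list. Replicate 1 had rank 6507 at −969 bp and rank 8811 at −206 bp, and replicate 2 had none. At act-3 (WBGene00000065, V:11071690-11074498) no list had a region.

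**Figure D3:**
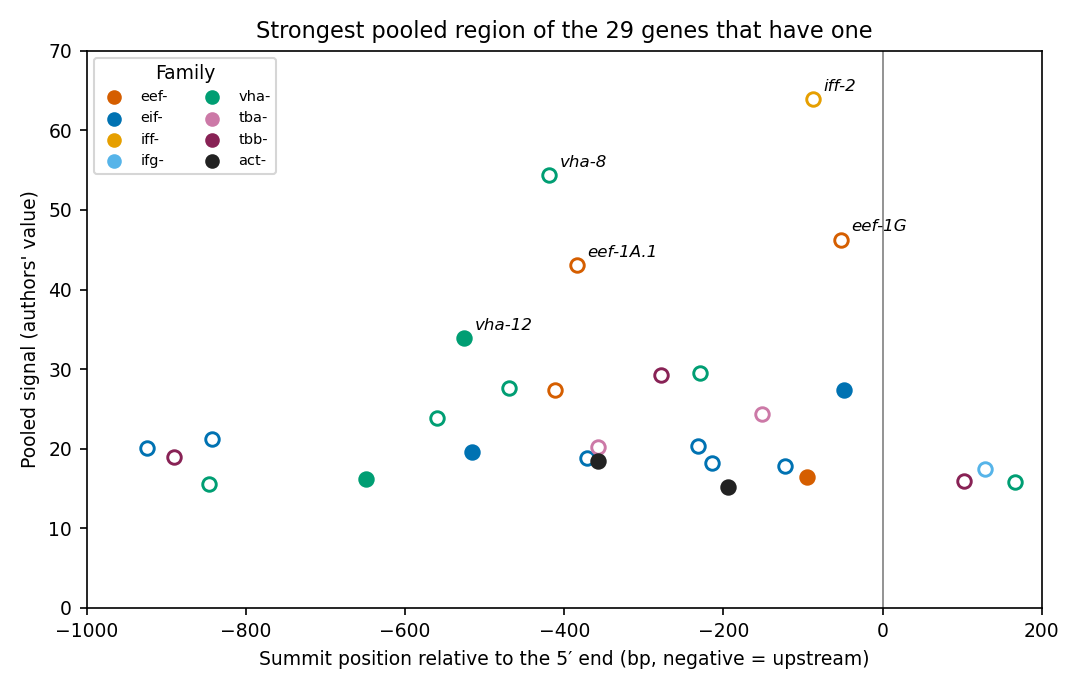
Position of the strongest pooled summit relative to the 5′ end in bp (x axis, negative is upstream) against its pooled signal as the authors gave it (y axis), for the 29 genes with a pooled region, coloured by family. Filled points have a WGATAR match within 50 bp of the summit, and open points have none. Of the 5 labelled genes in the top 1000, vha-12 alone is filled.

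Across the 29 genes the pooled summits lay mostly upstream, as they did for all genes. The median position was −357 bp (quartiles −516 and −123), against −343 bp (quartiles −642 and −100) for the 5364 protein-coding genes with a pooled region. Upstream summits numbered 26 of 29, and 18 lay within 500 bp upstream, against 4581 and 2650 of the 5364 genes. The median rank was 8520 against 9898, and the median signal 20.21 against 19.42. Each of the 29 had a region of its own, with none shared between them.

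A WGATAR match stood within 50 bp of the summit at 7 of the 29 genes (24.1%), against 24% of all genes with a pooled region. This share is at the background. In windows 500 bp to the right it was 4 genes (13.8%), against 20.9% of all genes. The 7 genes are vha-12, eif-2gamma, eif-3.G, vha-6, eef-1B.1, act-2 and act-1. In replicate 1 the count was 5 of 39 (12.8%, against 23.4% of all genes), with 12 in the windows to the right (30.8%, against 20.2%). In replicate 2 it was 8 of 31 (25.8%, against 23.7%), with 6 to the right (19.4%, against 20.6%). The motif was found in 23.9% of all pooled regions and in 35.9% of the 1000 strongest, and in 1 of the 5 genes here that are among these. From the pooled summit the nearest WGATAR was 105 bp away at vha-8, 111 bp at eef-1A.1, 176 bp at eef-1G and 33 bp at vha-12. The median was 133 bp over the 29 genes and 125 bp over 5308 genes.

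The other motifs shown in the sequences above were found at 7 of the 29 genes. GAGAGA lay at 4 of the 29, vha-8, eef-1A.1, vha-15 and eef-1A.2, and was in 6.42% of all pooled regions and 15.9% of the 1000 strongest. Shares of regions in this paragraph cover regions anywhere in the genome, not those in promoter windows alone. ACGCAG lay at 3 of the 29, iff-2, eef-1G and vha-1, against 2.51% and 6.4% of regions, and CACGTG lay at none, against 1.79% and 5.5%. These are matches of letters within 50 bp of a summit. The motifs in this paragraph were chosen because earlier work had shown them in strong regions of these same lists. Their presence at strong summits, and their shares among the strongest regions, are therefore not independent findings. Windows of the printed size at the 29 genes had a median GC content of 42.57%, against 33.66% for all genes with a pooled region. Among the genes in the pooled top 1000, those of iff-2, vha-8 and eef-1G had 60.4%, 51.49% and 49.5%. Those of eef-1A.1 and vha-12 had 44.55% and 32.67%. The part of base composition in these regions was not tested.

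Crowded promoters were frequent at the strongest regions. Of the 5 genes in the pooled top 1000, 4 had a summit that also fell in another gene's window, against 32.9% of the 395 genes in the same top 1000. For 3 of the 5 the nearest 5′ end was their own, against 82%, and all 5 summits lay between genes, against 78.2%. Over the 29 genes, 9 summits also fell in another window (31%, against 22.4%), and 24 were nearest to their own gene (82.8%, against 85%). If a summit counts only for the nearest gene, the top 1000 keeps iff-2, eef-1G and vha-12, which is 3 genes (4.05%, against 1.63% of all genes).

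The replicate lists overlapped the pooled regions in part. Of the 29 pooled regions, 21 were overlapped by a region of replicate 1, 19 by a region of replicate 2, and 12 by both. No share over all genes stands beside these overlap counts, so whether they are usual cannot be told. Regions in all 3 lists were found at 15 of the 74 genes (20.3%, against 13% of all genes), and 23 genes had no region in any list (31.1%, against 45.2%). These 23 are act-3, eif-1, eif-1.A, eif-2beta, eif-2Bbeta, eif-2Bepsilon, eif-3.E, eif-3.H, eif-3.K, eif-3.L, eif-4A3, eif-6, ife-1, ife-4, ife-5, tba-1, tba-6, tba-8, vha-3, vha-4, vha-7, vha-11 and vha-19. Of the genes with no pooled region, the highest rank in a replicate list was that of eef-2, 3032 in replicate 1. The pooled list was made from the replicates' own reads, so this overlap is not an independent repeat. Pooled regions were found at 8 of the 18 genes on chromosome I (44.4%, against 33.3% of all genes there), 7 of 16 on II (43.8%, against 25.7%), 5 of 12 on III (41.7%, against 25.1%), 1 of 9 on IV (11.1%, against 21.9%), 5 of 10 on V (50%, against 25.5%) and 3 of 9 on X (33.3%, against 31.6%). In the pooled top 1000 there were 0 of the 18 genes on chromosome I, against 3.37% of all genes on that chromosome. Each other chromosome had 1 gene there. Of all genes on II, III, IV, V and X, the shares in the top 1000 are 1.39%, 2.39%, 1.58%, 1.34% and 2.49%. With so few genes per chromosome, a count of 0 lies near these shares.

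Of 56 genes of the same pathways under other names, 16 had a pooled region (28.6%, against 26.9% of all genes and 39.2% of the 74 genes) and 4 were in the top 1000 (7.14%, against 1.98%). These 4 were cct-1, a subunit of the chaperonin that folds actin and tubulin (rank 216; 815 in replicate 1 and 126 in replicate 2), and cct-8 of the same complex (644; 459 and 14970), with cars-1, the cysteinyl-tRNA synthetase gene (305; 465 and 911), and pab-2, a poly(A)-binding protein gene (331; 307 and 511). Thus 3 of the 4 were in the top 1000 of all 3 lists, the exception being cct-8 in replicate 2. The actin capping gene cap-2 had pooled rank 1248. The V0 subunit gene unc-32 had rank 14172, the intestinal actin gene act-5 had 18899, and mec-7, mec-12, ben-1, tbg-1, act-4 and the 7 arx genes had no pooled region.

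Ribosomal protein genes and proteasome subunit genes are like sets with housekeeping roles. Of 78 ribosomal protein genes, 16 were in the pooled top 1000 (20.5%) and 47 had any pooled region (60.3%), above the 6.76% and 39.2% of the 74 genes. Of 33 proteasome subunit genes, 0 were in the top 1000 and 15 had any region (45.5%), with rpt-3 highest at rank 1015. Among the 1000 strongest regions the order of these sets was the same in both replicates. The shares were 28.2%, 8.11% and 3.03% in replicate 1 and 14.1%, 5.41% and 3.03% in replicate 2. The order did not hold among the 500 strongest of replicate 2. There the proteasome share, from 1 gene, was 3.03% and that of the 74 genes 2.7%. The differences between the sets were not tested. Median GC at the pooled summits was 44.55% for ribosomal protein genes and 34.65% for proteasome genes. In the same order it was 44.55% and 42.08% in replicate 1, and 42.08% and 29.7% in replicate 2.

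**Figure D4:**
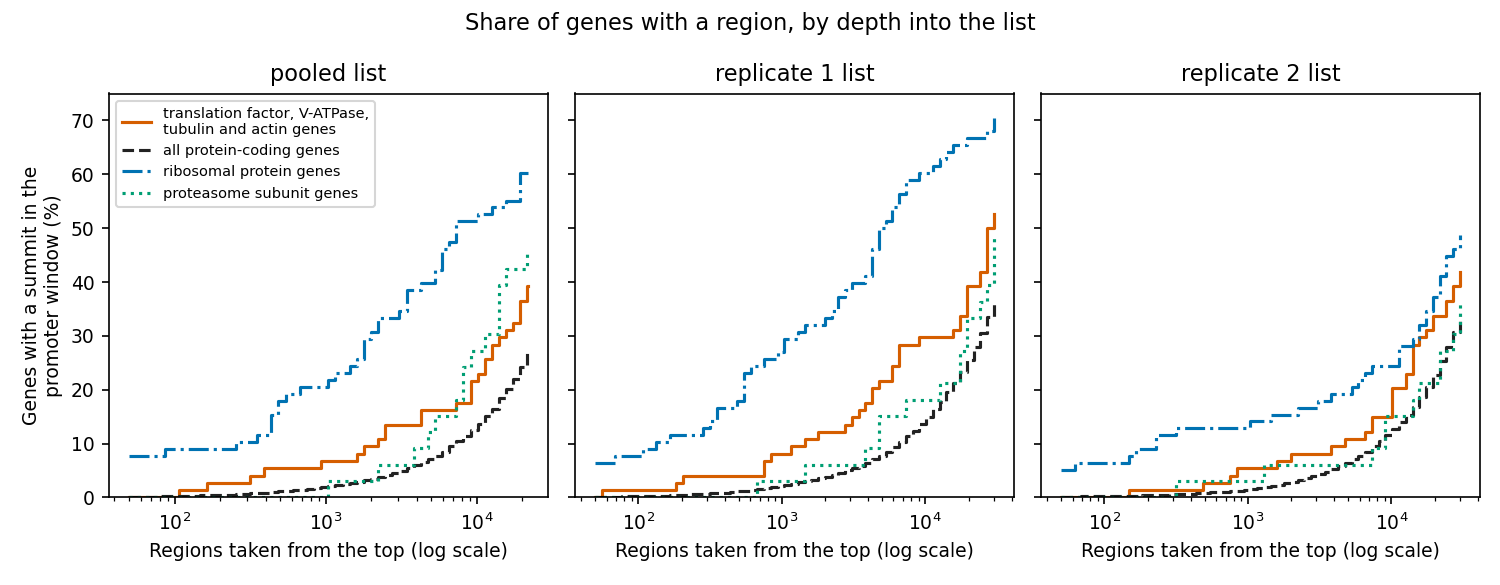
Share of genes that have a promoter summit (y axis, %) as regions are taken from the top of each list (x axis, log scale), for the 74 genes, all 19973 protein-coding genes, 78 ribosomal protein genes and 33 proteasome subunit genes, in the pooled, replicate 1 and replicate 2 lists. At 1000 pooled regions the values are 6.76%, 1.98%, 20.5% and 0%, and at the end of the pooled list 39.2%, 26.9%, 60.3% and 45.5%.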

How the data were processed

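Peak lists of 2 biological replicates and of the pooled replicates on ce11 were used as deposited. Per the README text of the deposit, the relaxed lists hold peaks and background derived from alignments and a control, and the IDR list was derived from them. The signal of each region is as the authors deposited it, while its scaling, the aligner, the caller, versions and read depth were not given in the labels or headers. Lists on ce10 were not used. Regions were ranked by signal within a list. All regions ended within the WBcel235 chromosomes, and 5′ ends came from Ensembl release 115. Motifs were searched on both strands within 50 bp of a summit and, as control, around the position 500 bp to the right. Python 3.11.15, numpy 2.4.6 and matplotlib 3.10.9 were used, and the counting was checked on simulated data. No test was run. Named genes are those in the pooled top 1000, the IDR list or both replicates' top 1000, the highest of each family, and act-1, act-2 and act-3; others named were chosen after their values were seen. The members, lists and motifs were chosen with earlier results of these data known. Of 57 names of other pathway genes, 56 were found. Alternatives changed the window, the position rule, the number of strongest regions, the motif width, and the list.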

Additional observations from a re-analysis of the deposited data

How the results depend on the processing

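Taking each replicate list alone in place of the pooled list gave 31 to 39 genes with any region (29 in the pooled list), 4 to 6 in the top 1000 (5), 8 to 9 families with a region (8), 11 to 22 ribosomal protein genes in the top 1000 (16), 1 proteasome gene there (0), 16 to 26 other pathway genes with any region (16), a median position of −385 to −280 bp (−357) and 5 to 8 genes with WGATAR (7). Giving each summit to its nearest gene left 3 genes in the top 1000, 1 with an IDR peak (iff-2) and 1 in the top 1000 of both replicates. The stronger part of the IDR list held 1 gene, and the 500 strongest regions of both replicates held 1. Other pathway genes with any region fell to 9 in a window of 500 bp upstream and 100 bp downstream. Proteasome genes numbered 1 in a window of 2000 bp upstream and 500 bp downstream, and 1 among the 2000 strongest. The median position was −279 bp when the nearest region was taken. WGATAR lay at 4 genes within 25 bp, 19 over the whole region, and 11 when GATA alone was asked for. These motif counts stand without a share over all genes, so they cannot be set against a background. The cause of these changes was not tested, apart from the wider or narrower search itself. Of 51 recomputed signals of named genes, 1 moved: in the narrow window vha-12 had 15.23. These 51 leave out the settings in which a named gene kept no region. That was so for ifg-1 in the narrow window. It was also so for eef-1A.1, tbb-1 and vha-8 when each summit was given to its nearest gene. No paired analysis was possible because there is 1 group. Read depth is unknown, so no interval is given.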

Other observations

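A window of 2000 bp upstream to 500 bp downstream brought 7 of the 74 genes into the pooled top 1000 (9.46%, against 2.97% of all genes), adding eif-3.G and eef-1B.1. The region added at eif-3.G, which encodes an RNA-binding subunit of eIF3, is an IDR peak of rank 188 and signal 51.76 with its summit at −1691 bp, and the 5′ end of eif-3.G is the nearest to it. In the 1000 bp window the same gene had 2 pooled regions, the stronger of rank 9672. The region added at eef-1B.1 has rank 806 and signal 34.62 at −1224 bp, and lies nearer to another gene.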
